A study of Homo sapiens with 4 samples.

Results

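AP-1 and immediate early transcription factors were examined in U937 cells with PIR knocked down and in U937 cells with an empty vector. The group holds 9 genes, FOS, FOSB, FOSL1, FOSL2, JUN, JUNB, JUND, ATF3 and EGR1. Its members are all 23 probe sets that the platform annotation assigns to 1 of these symbols, out of 54675 on the array. With 1 probe set per gene, the 9 genes are among 19775 with a single annotated symbol. They were chosen by gene name, with 1 probe set for FOS, FOSB, FOSL1 and JUNB and up to 5 for the other genes. U937 is a human line with monocytic properties, established from a histiocytic lymphoma. The knock-down cells carried the hairpin shPIR#7 against PIR in the lentiviral pSICO-R vector, and the empty-vector cells carried pSICO-R without an insert, so both had been infected with the vector. Pirin, the product of PIR, is a nuclear protein that binds iron. The design text reports no pirin protein left in the knock-down cells on a Western blot. The labels name serum-containing RPMI-1640 medium for both lines and no acute stimulus.

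The platform was the Affymetrix HG-U133 Plus v.2 array. RNA of 3 extractions was mixed into 1 pool per condition, and 2 arrays were run per pool. The 4 arrays therefore compare 2 pools, 1 per condition, from 1 hairpin in 1 cell line. Errors below are SDs over the 2 arrays of a pool (n = 2 hybridisations), and the design gives no replicate check and no p-value for the condition. Signal is the authors' linear intensity. Log2 differences are knock-down minus empty vector, computed on log2(signal + 18), a scale that understates the change of dim genes. A brightness limit was set at the 60th percentile of signal of each array, between 116.4 and 125.5. A probe set counted as measured if a pool had both its arrays at or above it. It was called changed when the pools differed by at least 1 (2-fold), each of the 4 differences between single arrays was at least 0.5 with the same sign, and the brighter pool reached the brightness limit on both arrays.

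AP-1 is a dimer of basic leucine zipper (bZIP) proteins. JUN proteins pair with each other or with FOS proteins, FOS proteins need a JUN partner, and ATF3 pairs with JUN proteins or with itself. The dimers bind the TPA response element and the related cAMP response element. EGR1 is a zinc finger factor of another family, grouped here because FOS, FOSB, JUN, JUNB, ATF3 and EGR1 are immediate early genes, transcribed within minutes of a growth factor, stress or phorbol ester signal without new protein synthesis. In monocytic cells these factors are known for their induction during differentiation and for their part in cytokine gene expression.

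PIR, the target of the hairpin, had signals of 83.4 and 91.5 on the knock-down arrays, against 1813 and 1882 on the empty-vector arrays. Its difference was -4.15 on the log2 scale, and the knock-down signals lay below the brightness limit. Of 6 myelomonocytic markers with an annotated probe set, PTPRC, SPI1, ITGB2, LYZ and CD4 were measured and MPO was not. Of 15 annotated markers of T cells, B cells, erythroid, epithelial and fibroblast cells, 2 were measured. These were CD79A, with signals of 295.1 and 305.7 on the knock-down arrays, against 288.9 and 369.3 on the empty-vector arrays, and COL1A1, with 137.9 and 222.6 on the knock-down arrays, against 166.2 and 104.8 on the empty-vector arrays. The 3'/5' signal ratio of GAPDH ranged from 0.98 to 1.00 on the knock-down arrays and from 0.96 to 1.02 on the empty-vector arrays, and that of ACTB from 1.17 to 1.18 in both pools.

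FOS was higher in the knock-down pool, and it was the only member that met the size rule. Of the 23 member probe sets, 18 were measured and all 18 reached the brightness limit on all 4 arrays. Of these, 1 was called higher and none lower. Over all 21933 measured probe sets, 2.29% were called higher and 1.45% lower, which was 3.17% and 0.971% after median scaling. The other genes had smaller differences, mostly above 0 in the FOS and JUN families and close to 0 for JUNB, the brightest EGR1 probe set and ATF3 probe set 202672_s_at.

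**Figure D1:**
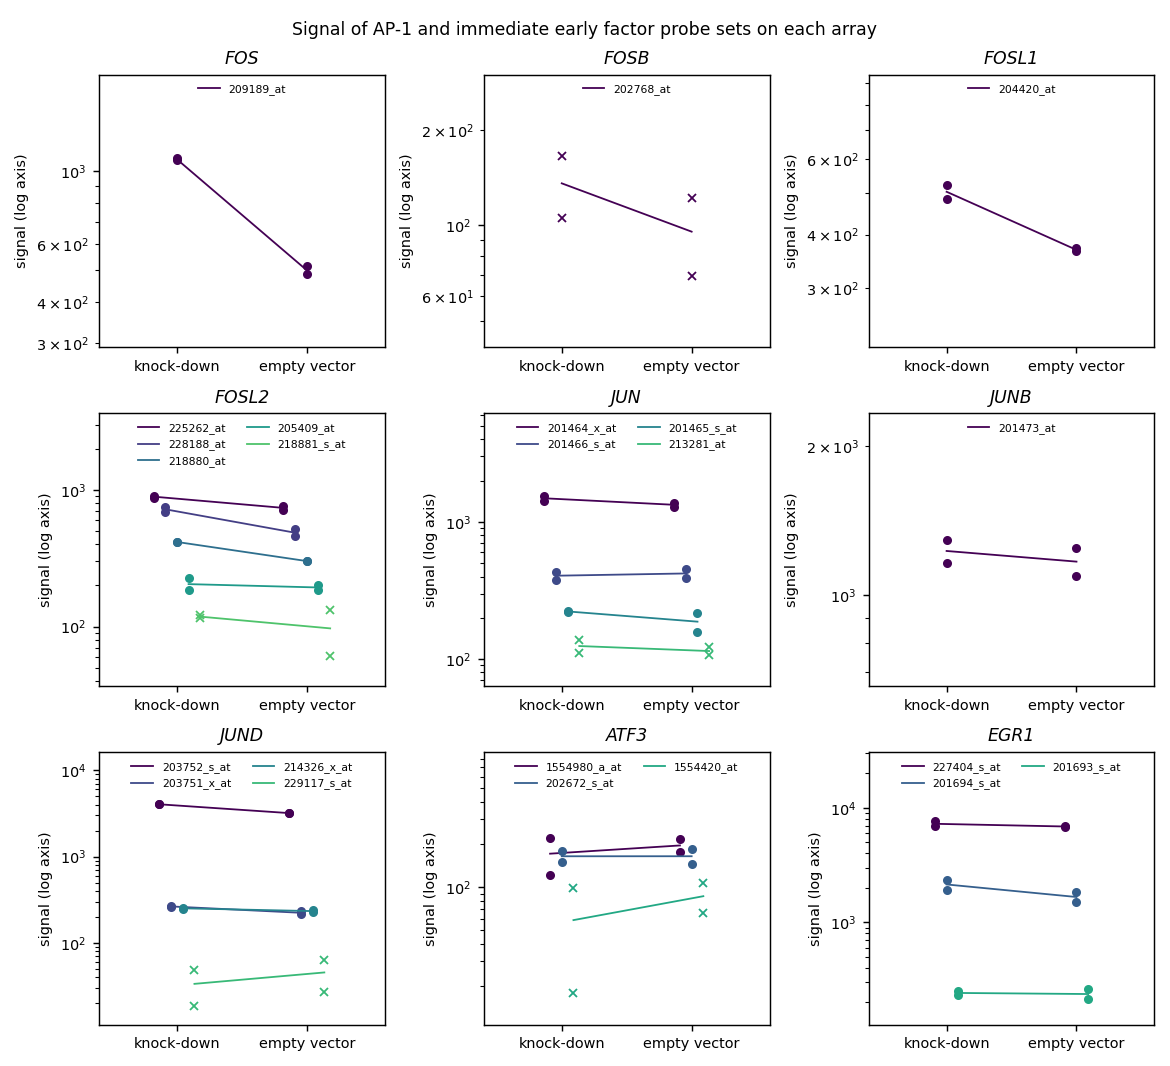
Signal of each member probe set on each array (log axis, 1 panel per gene, own scale in each panel). Points are the 2 arrays of a pool, lines join the pool means, and crosses mark the 5 probe sets that were not measured. The FOS arrays separate widely between the pools, while the JUNB and ATF3 arrays overlap.

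FOS, the founding member of its family and an obligate partner of JUN proteins, is represented by probe set 209189_at. Its signals were 1097 and 1081 on the knock-down arrays, against 485.8 and 513.6 on the empty-vector arrays. Both knock-down arrays lay far above both empty-vector arrays, and the arrays of a pool lay close together. The knock-down pool averaged 1089 ± 11.0, against 499.7 ± 19.7 for the empty-vector pool. On the log2(signal + 18) scale the difference was 1.10, a fold of 2.14 between values with 18 added, with 4 differences between single arrays of 1.05 to 1.15, just above the 2-fold limit. Among all measured probe sets, 1.85% had a larger positive difference. In RNA from whole cultures, more cells that express FOS and more FOS RNA per cell cannot be told apart. FOS has no second probe set here, so no other probes of the gene were available for comparison.

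The promoter of FOS is shown with those of FOSL2, JUND, JUN and EGR1, to set the called gene beside family members with smaller differences. Each window runs from 250 bases before to 50 bases after the annotated start, in gene orientation, from RefSeq on GRCh38.p14. The windows are FOS at chr14:75278578-75278877 (+), FOSL2 at chr2:28392608-28392907 (+), JUND at chr19:18281573-18281872 (-), JUN at chr1:58783998-58784297 (-) and EGR1 at chr5:138465229-138465528 (+). Capitals mark matches on either strand to TGANTCA (TPA response element), TGACGTCA (cAMP response element), TGACATCA (a variant of it), TGACGT (the core of the cAMP response element, which overlaps TGACGTCA), GCGNGGGCG (EGR site) or the CArG box that serum response factor binds.
FOS: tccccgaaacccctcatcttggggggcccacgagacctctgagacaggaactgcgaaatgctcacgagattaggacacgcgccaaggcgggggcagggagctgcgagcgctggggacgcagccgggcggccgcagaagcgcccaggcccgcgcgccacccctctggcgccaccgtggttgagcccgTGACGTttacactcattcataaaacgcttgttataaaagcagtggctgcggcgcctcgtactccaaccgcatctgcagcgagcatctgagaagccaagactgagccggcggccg
FOSL2: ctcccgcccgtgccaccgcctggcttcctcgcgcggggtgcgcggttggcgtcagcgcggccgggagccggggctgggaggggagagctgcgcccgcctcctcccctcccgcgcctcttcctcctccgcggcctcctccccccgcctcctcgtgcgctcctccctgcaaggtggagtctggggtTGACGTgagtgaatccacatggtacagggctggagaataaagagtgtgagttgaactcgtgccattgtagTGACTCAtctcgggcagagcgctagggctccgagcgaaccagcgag
JUND: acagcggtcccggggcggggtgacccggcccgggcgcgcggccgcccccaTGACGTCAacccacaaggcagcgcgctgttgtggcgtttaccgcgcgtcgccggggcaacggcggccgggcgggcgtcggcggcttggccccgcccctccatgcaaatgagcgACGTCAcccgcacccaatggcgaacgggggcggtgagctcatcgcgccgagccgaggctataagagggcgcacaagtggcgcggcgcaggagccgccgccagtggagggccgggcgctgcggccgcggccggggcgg
JUN: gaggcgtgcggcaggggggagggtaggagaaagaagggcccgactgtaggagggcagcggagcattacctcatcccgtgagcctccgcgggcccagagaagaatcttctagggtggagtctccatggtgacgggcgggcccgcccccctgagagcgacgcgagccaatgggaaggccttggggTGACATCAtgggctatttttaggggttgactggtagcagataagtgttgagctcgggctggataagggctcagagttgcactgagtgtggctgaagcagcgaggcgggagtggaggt
EGR1: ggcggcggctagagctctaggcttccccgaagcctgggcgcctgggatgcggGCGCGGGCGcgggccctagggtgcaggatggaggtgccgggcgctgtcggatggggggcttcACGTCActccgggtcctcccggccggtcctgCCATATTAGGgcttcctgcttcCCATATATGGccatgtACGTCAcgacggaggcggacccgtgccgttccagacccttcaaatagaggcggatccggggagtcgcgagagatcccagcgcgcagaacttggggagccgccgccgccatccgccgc
Windows were found for all members but FOSL1, with 2 for ATF3, 9 in all. TGACGT was present in the windows of FOS, FOSB, FOSL2, JUND and EGR1, and in 7.98% of all 35116 promoter windows. Counted from the annotated start, with the base before it as -1, it began at -64 in FOS, -60 in FOSB and -66 in FOSL2. Its full form TGACGTCA was matched in JUND alone of the members, and in 1.85% of all windows. JUN and 1 ATF3 window held TGACATCA, found in 2.61% of all windows. FOSL2 held the only TGANTCA match of the group, written TGACTCA and beginning at base 5 of the transcript, and 7.71% of all windows hold this motif. EGR1 held 2 CArG boxes, CCATATTAGG and CCATATATGG, where 1.29% of all windows hold any, and 1 EGR site, present in 9.43%. The FOS window shares its TGACGT match with FOSL2, JUND and EGR1, whose probe sets were not called. These matches describe the letters in the windows and not bound sites. Sequence more than 250 bases before the start was not searched. A window without a CArG box, such as that of FOS, therefore does not show that the gene lacks one farther upstream.

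Among the other FOS family genes, FOSL1 and FOSL2 were measured and neither was called. They encode FRA-1 and FRA-2, which lack the strong activation domain of FOS and are induced later than it after a stimulus. FOSL1 had signals of 522.9 and 483.1 on the knock-down arrays, against 371.8 and 365.6 on the empty-vector arrays. The 2 pools did not overlap, and the log2 difference was 0.43, with array-by-array values from 0.36 to 0.50. Each of the 4 FOSL1 pairs therefore lay below the 2-fold limit.

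FOSL2 had 5 probe sets, of which 4 were measured. On 228188_at the signals were 753.6 and 687.2 on the knock-down arrays, against 513.8 and 456.9 on the empty-vector arrays, a difference of 0.55. On 218880_at they were 413.0 and 417.9 on the knock-down arrays, against 299.9 and 302.2 on the empty-vector arrays, a difference of 0.44. On 225262_at, the brightest, they were 876.9 and 905.3 on the knock-down arrays, against 763.8 and 710.7 on the empty-vector arrays, a difference of 0.27. These 3 probe sets placed both knock-down arrays above both empty-vector arrays, as did 37.4% of all measured probe sets. The fourth, 205409_at, had 224.6 and 183.8 on the knock-down arrays, against 201.9 and 184.1 on the empty-vector arrays, so the pools overlapped at a difference of 0.07. The measured FOSL2 probe sets therefore spanned 0.48 on the log2 scale. The other FOSL2 probe set, 218881_s_at, was not measured, with 121.4 and 114.8 on the knock-down arrays, against 61.3 and 132.5 on the empty-vector arrays.

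FOSB, which encodes an inducible FOS relative, was not measured. Its single probe set had signals of 105.6 and 165.7 on the knock-down arrays, against 122.1 and 69.1 on the empty-vector arrays. The pools overlapped, and 1 of the 4 arrays reached the brightness limit. Over the 6 measured probe sets of the FOS family, 4 of them of FOSL2, all 6 differences were above 0 and their median was 0.44. Of all measured probe sets, 52.1% were above 0, and 64.8% after median scaling.

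JUN family differences were smaller. JUND, the JUN protein that is expressed in resting cells and little induced by stimuli, was measured by 3 of 4 probe sets. Its brightest, 203752_s_at, had signals of 4053 and 4030 on the knock-down arrays, against 3176 and 3212 on the empty-vector arrays. The arrays of each pool almost coincided and the pools stood apart, at a log2 difference of 0.34 with pairs from 0.33 to 0.35. The other measured JUND probe sets also had both knock-down arrays above both empty-vector arrays, as did 37.4% of all measured probe sets. On 203751_x_at the signals were 267.5 and 261.1 on the knock-down arrays, against 215.0 and 231.1 on the empty-vector arrays, and on 214326_x_at they were 249.8 and 253.0 on the knock-down arrays, against 228.5 and 238.2 on the empty-vector arrays. Their differences were 0.23 and 0.10, and the _x_at ending marks probes that can cross-hybridise with other transcripts. The fourth, 229117_s_at, stayed below the limit on all 4 arrays.

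JUN, the main partner of FOS in AP-1, had 3 measured probe sets that did not give 1 direction. The brightest, 201464_x_at, had signals of 1429 and 1543 on the knock-down arrays, against 1294 and 1370 on the empty-vector arrays, a difference of 0.16. Its _x_at ending marks probes that can cross-hybridise, and it stands for JUN in the counts with 1 probe set per gene. On 201465_s_at they were 225.0 and 220.3 on the knock-down arrays, against 157.0 and 218.1 on the empty-vector arrays, a difference of 0.24 in which the closest pair of arrays differed by only 0.01. On 201466_s_at they were 378.2 and 432.5 on the knock-down arrays, against 452.9 and 389.1 on the empty-vector arrays, a difference of -0.05 with overlapping pools, which was 0.07 after median scaling. The fourth, 213281_at, was not measured, with a difference of 0.10.

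JUNB encodes a JUN relative with weaker activation on simple AP-1 sites. It had signals of 1296 and 1163 on the knock-down arrays, against 1247 and 1093 on the empty-vector arrays. The pools overlapped, the difference was 0.07, and the gap between the 2 arrays of either pool exceeded it. Over the 7 measured JUN family probe sets, 6 differences were above 0 and their median was 0.16, where 52.1% of all measured probe sets were above 0.

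ATF3, a stress-induced bZIP factor that often represses its targets, did not show a difference beyond the spread of its arrays. On 202672_s_at the signals were 181.0 and 149.4 on the knock-down arrays, against 184.7 and 145.9 on the empty-vector arrays, a difference of 0.0020. On 1554980_a_at they were 121.4 and 223.2 on the knock-down arrays, against 176.7 and 217.1 on the empty-vector arrays, a difference of -0.22. On 1554980_a_at the knock-down arrays differed from each other by more than the pools did, and its sign changed to 0.17 without knock-down replica 1. The third ATF3 probe set, 1554420_at, lay below the brightness limit on all arrays.

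EGR1, a zinc finger factor of growth and differentiation signals, had 3 measured probe sets. The brightest, 227404_s_at, had signals of 7627 and 6870 on the knock-down arrays, against 6911 and 6824 on the empty-vector arrays, a difference of 0.08 with overlapping pools. On 201694_s_at they were 2350.0 and 1936 on the knock-down arrays, against 1830 and 1501 on the empty-vector arrays. These pools did not overlap, but the pairs ran from 0.08 to 0.64 around a difference of 0.36, so the arrays within each pool were far apart. On 201693_s_at the signals were 252.1 and 232.4 on the knock-down arrays, against 261.0 and 213.1 on the empty-vector arrays, a difference of 0.03. FOS and EGR1 thus had unlike differences between these pools, 1.10 on the only FOS probe set and 0.03 to 0.36 on those of EGR1. Their difference from each other was not tested.

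**Figure D2:**
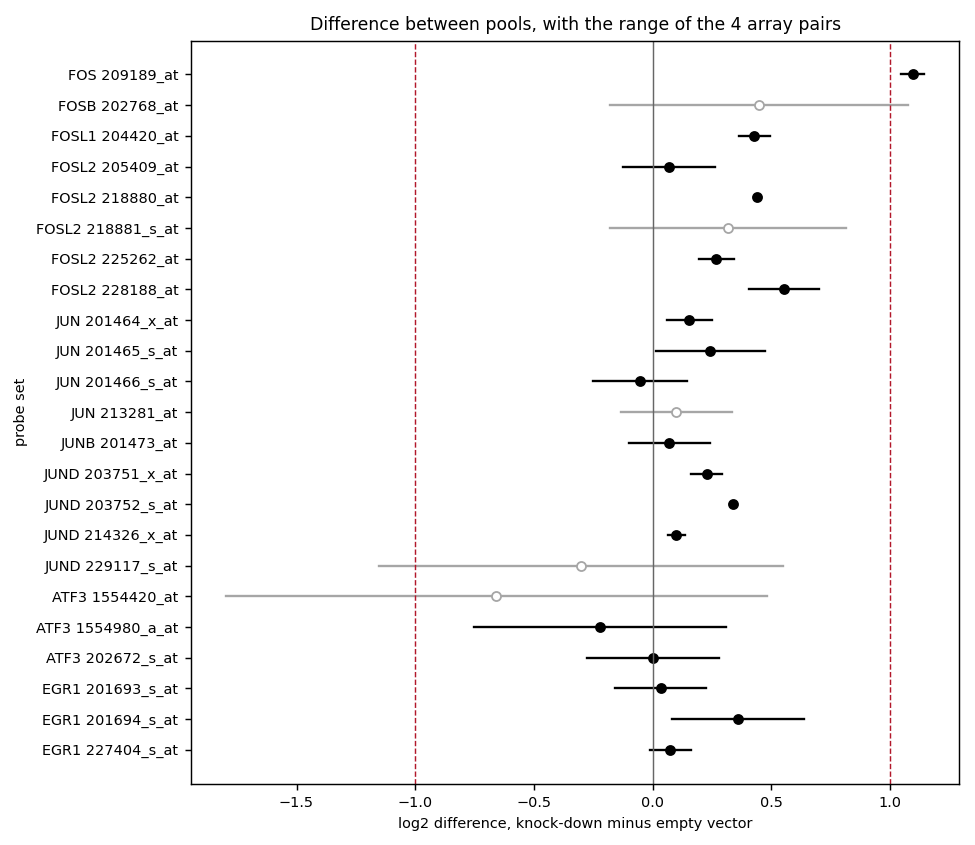
Log2 difference between pools for each member probe set (points), with the range of the 4 array-by-array differences (lines). Open grey points were not measured, and dashed lines mark 2-fold. FOS at 1.10 lies beyond the upper 2-fold line, and the ranges of the other 22 probe sets are centred below it.

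Across the 18 measured member probe sets, 16 differences were above 0 and 2 below, from -0.22 to 1.10, where 52.1% of all measured probe sets were above 0. Both knock-down arrays lay above both empty-vector arrays in 11 of them, and in none did both lie below. The other 7 overlapped. Among all measured probe sets, 37.4% had both knock-down arrays above and 33.3% had both below. The median difference of the members was 0.19, against 0.02 over all measured probe sets, whose 10th and 90th percentiles were -0.50 and 0.54. Several probe sets read the same gene, so these counts do not stand for 18 separate transcripts. With 1 probe set per gene, the brightest, 7 of 8 measured genes were above 0, where 55.2% of all measured genes were. In 5 of the 8 the pools were separate with both knock-down arrays above, against 40.9% of 10288 measured genes, and in none were both below, against 31.2%. Median scaling moved the median of all measured probe sets by 0.12, and relative to that median the members' median was 0.17 in the deposited scaling, after quantile normalization and after median scaling. FOS lay 1.08 above the median of all measured probe sets as deposited and 1.06 above it after quantile normalization. With the fold limit lowered to 1.5, FOS was still the only member called, against 6.45% of measured probe sets called higher and 4.91% lower.

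**Figure D3:**
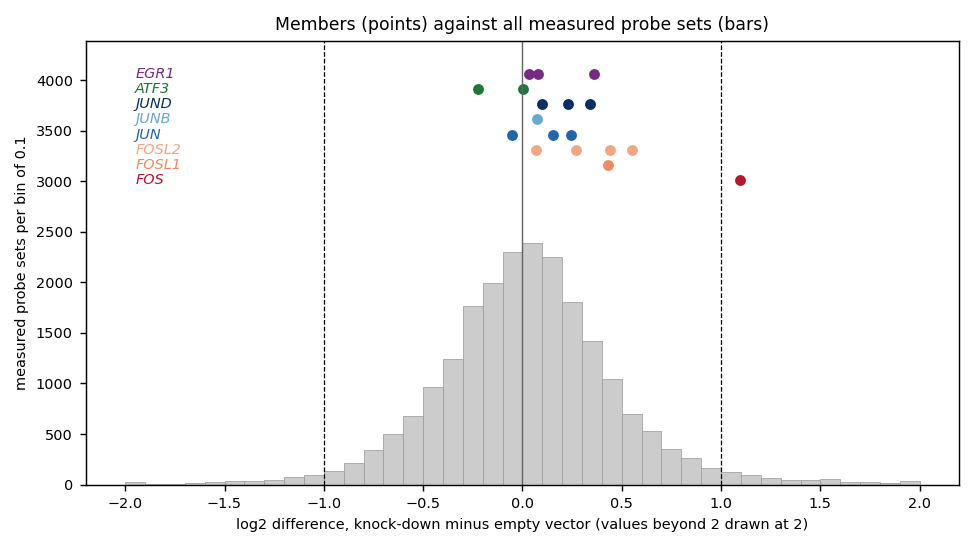
Log2 differences of the 18 measured member probe sets (points, 1 row per gene) above the distribution of all 21933 measured probe sets (bars, number per bin of 0.1). Most members lie in the right part of the central bars, and FOS at 1.10 lies past the 2-fold line.

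The genes whose pattern over the 4 arrays was most like that of FOS were IL18, TSPAN18 and IL1RN. Likeness was the Euclidean distance between log2 values on the 4 arrays, which was 0.08, 0.11 and 0.12. IL18, which encodes interleukin-18, had signals of 1125 and 1115 on the knock-down arrays, against 488.5 and 532.4 on the empty-vector arrays. TSPAN18, a tetraspanin, had 1051 and 1149 on the knock-down arrays, against 473.9 and 524.2 on the empty-vector arrays. IL1RN, the interleukin-1 receptor antagonist, had 1062 and 1073 on the knock-down arrays, against 522.8 and 533.8 on the empty-vector arrays. With 2 pools, a short distance says only that signal and difference were alike on these arrays.

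In 6 lists of genes around AP-1, covering other bZIP factors, other immediate early genes, kinases and factors upstream, feedback regulators, AP-1 protein turnover and decay of AU-rich mRNA, none of the 90 measured genes was called in either direction on its brightest probe set. At the 1.5-fold limit, 4 were called higher (CREB3, NFE2L1, SGK1 and MAP3K8) and 1 lower (IER3). At that limit 6.45% of all measured probe sets were called higher and 4.91% lower. Other settings of the size rule called at most 2 genes of these lists, MAP3K8 and NR4A1, both higher. Of the 188 measured probe sets of the 90 genes, 2 were called in the main setting, both lower and neither the brightest of its gene. For MAPK8, which encodes the JUN kinase JNK1, 229664_at had 223.9 and 221.8 on the knock-down arrays, against 606.6 and 643.1 on the empty-vector arrays, a difference of -1.42. The brightest MAPK8 probe set gave 0.26, and its other measured probe sets gave 0.27 and -0.33. For KHSRP, a factor of AU-rich mRNA decay, 227555_s_at had 100.1 and 24.4 on the knock-down arrays, against 171.3 and 186.9 on the empty-vector arrays, a difference of -1.48. The brightest KHSRP probe set gave -0.18, and its other measured probe sets gave 0.10 and -0.25. The 2 called probe sets were named after their values were seen. Over all measured genes, 2.44% were called higher and 1.1% lower, with a median difference of 0.05.

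Other bZIP factors, which can pair with or compete with AP-1 proteins, had differences on both sides of 0. Of 24 measured genes, 14 were above 0 and 10 below, with a median of 0.08, which ran from 0.04 without a brightness limit to 0.21 after median scaling. The largest were CREB3, a membrane-bound factor of secretory stress, at 0.67 (515.8 ± 21.9 with the hairpin and 318.4 ± 1.63 with the empty vector), and NFE2L1, a regulator of proteasome genes, at 0.59. The other measured NFE2L1 probe sets gave 0.29 and 0.20.

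Other immediate early genes had a median of 0.0053 over 19 measured genes, 10 above 0 and 9 below, and the median ran from -0.0065 without empty-vector replica 1 to 0.13 after median scaling. The largest differences among the measured genes were of opposite sign. IER3, an early response gene of survival signalling, had signals of 450.9 and 499.3 on the knock-down arrays, against 845.9 and 760.1 on the empty-vector arrays, a difference of -0.74. SGK1, a serum- and glucocorticoid-regulated kinase, had 1853 and 1766 on the knock-down arrays, against 1070 and 1128 on the empty-vector arrays, a difference of 0.71. In both, the pools did not overlap. NR4A1 was not measured, with 108.3 and 153.9 on the knock-down arrays, against 37.9 and 38.7 on the empty-vector arrays. Its log2 difference was 1.39, and 1 of the 4 arrays reached the brightness limit. It was named after its values were seen, and other genes of this list that were not measured had differences on both sides of 0.

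Upstream of FOS and EGR1, mitogen-activated protein kinases phosphorylate ternary complex factors that sit with serum response factor on promoters. Of 22 measured kinases and factors, 16 had a difference above 0, with a median of 0.12, which was 0.04 with a gene's probe sets averaged and 0.25 after median scaling. MAP3K8, a kinase upstream of ERK in myeloid cells, had signals of 194.5 and 261.4 on the knock-down arrays, against 114.6 and 98.1 on the empty-vector arrays. Both empty-vector arrays were below the brightness limit. Its difference was 0.97 with 18 added to each signal, under the 2-fold limit. It met the size rule at 1.09 with no pseudocount, 1.01 after quantile normalization, 1.09 after median scaling, 1.17 when knock-down replica 1 was left out and 1.07 when empty-vector replica 1 was. RPS6KA1, a ribosomal S6 kinase downstream of ERK, followed at 0.51.

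Feedback regulators and EGR corepressors had a median of -0.04 over 13 measured genes, 6 above 0 and 7 below. The sign of that median changed to 0.08 after median scaling, 0.06 with a gene's probe sets averaged, and 0.12, 0.02 and 0.03 without empty-vector replica 1, knock-down replica 1 and knock-down replica 2. DUSP10 and DUSP16, phosphatases of JNK and p38, had the largest differences, 0.53 and 0.44. The other measured DUSP16 probe sets gave -0.25 and -0.21, so the probe sets of this gene disagreed in sign. Of the turnover genes, which include ubiquitin ligase subunits that act on JUN proteins, 5 were measured with a median of 0.06, between 0.0069 after quantile normalization and 0.18 after median scaling. COP1 had 0.31, and COPS5, the signalosome subunit first described as a JUN coactivator, had -0.16.

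The list around AU-rich mRNA decay, the route that shortens the life of FOS mRNA, had 7 of 9 measured genes below 0. They include the AU-rich RNA binding proteins ELAVL1 at -0.06 and TIA1 at -0.40, so the 7 are not all factors that promote decay. The median of the list was -0.12, with -0.29 from a gene's averaged probe sets and 0.0017 after median scaling, so its sign depends on the scaling. ZFP36, which encodes tristetraprolin and is itself an early gene, had 1230 and 1063 on the knock-down arrays, against 827.7 and 838.3 on the empty-vector arrays, a difference of 0.45. CNOT1, the scaffold of the main deadenylase complex, had 2648 and 2389 on the knock-down arrays, against 3681 and 3728 on the empty-vector arrays, a difference of -0.56. Its other measured probe sets gave -0.02 and -0.50.

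**Figure D4:**
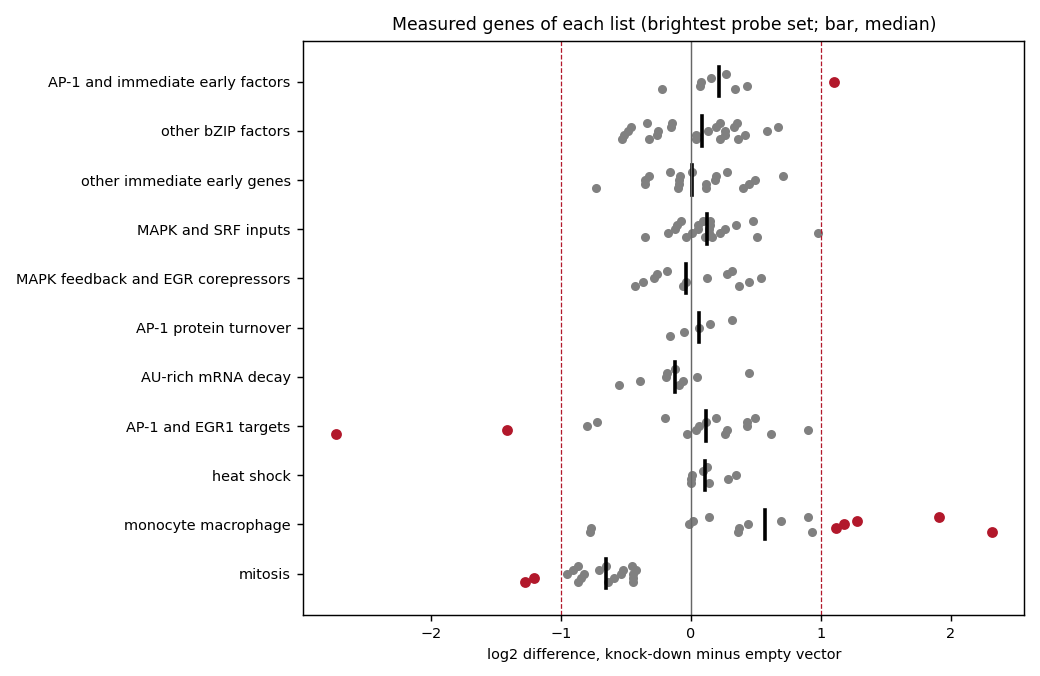
Log2 differences of the measured genes of each list, 1 point per gene from its brightest probe set. Black bars are medians, red points met the size rule, and dashed lines mark 2-fold. FOS is the only red point in the upper 7 rows, and the red points in the lower rows belong to targets, monocyte genes and mitotic genes.

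Genes known as targets of AP-1 or EGR1 had a median of 0.12 over 17 measured genes, 11 above 0 and 6 below, which ran from 0.04 without a brightness limit to 0.24 after median scaling. The called genes were both lower, where 1.1% of all measured genes were called lower and 2.44% higher. CXCL8, the interleukin-8 gene, had signals of 918.2 and 961.9 on the knock-down arrays, against 6634 and 6074 on the empty-vector arrays, a difference of -2.73. CCL2, a monocyte chemoattractant, had 3945 and 4027 on the knock-down arrays, against 10323 and 11013 on the empty-vector arrays, a difference of -1.42. These chemokine genes were lower in the pool in which FOS was higher. Both also respond to NF-kB, and the part of AP-1 or NF-kB in their differences was not tested.

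Gene groups that mark the state of the culture also differed between the pools. Over all measured genes, 2.44% were called higher and 1.1% lower, and 55.2% had a difference above 0. Of 16 measured monocyte and macrophage genes, 5 were called higher and none lower, with 13 differences above 0, 3 below and a median of 0.57. The median was 0.36 with a gene's probe sets averaged and 0.365 without a brightness limit. The called genes were CX3CR1, ITGAM, CD36, CTSS and LILRB2, from 2.31 for CX3CR1 to 1.12 for LILRB2. The LILRB2 probe set has the _x_at ending of probes that can cross-hybridise. Named after their values were seen, S100A8 and S100A9, which encode calprotectin, had log2 differences of -0.78 and -0.77, and LYZ and TLR2 had 0.01 and -0.01. The summed signal of the 23 annotated genes of this list ranged from 58736 to 65002 on the knock-down arrays and from 48017 to 48967 on the empty-vector arrays. All 19 mitotic genes had differences below 0, with a median of -0.66, and 2 were called lower, MKI67 at -1.28 and PLK1 at -1.21. Their summed signal ranged from 67663 to 69591 on the knock-down arrays and from 108444 to 108915 on the empty-vector arrays. The part of these groups in the FOS difference was not tested. Heat shock genes, which respond to handling, had 7 of 8 measured differences above 0, a median of 0.11 and no called gene. That median was 0.01 with a gene's probe sets averaged, 0.03 after quantile normalization and 0.23 after median scaling. BAG3 and DNAJB1, both co-chaperones of HSP70, had the largest, 0.35 and 0.29.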

How the data were processed

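Total RNA of U937 cells was pooled from 3 extractions per condition and hybridised to 2 HG-U133 Plus v.2 arrays per pool, per the labels' protocols and design text. The submitters' processing notes name GCOS as the software, with version and settings not given in the sources used here. Values as deposited are linear signal intensities, 1 per probe set and array. The mean after trimming 2% at each end was 500.07 on every array, so the scale is common, and no centring or direction is involved. Array medians were 62.5 and 68.5 (knock-down) and 70.8 and 72.1 (empty vector). No detection calls were used, and precision is limited by the number of arrays.

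The 62 AFFX controls were left out. Of 54613 other probe sets, the platform annotation gave 1 symbol to 41091, several to 1801 and none to 11721. Symbols were updated by gene identifier for 41037 probe sets from the GRCh38.p14 RefSeq table. No member symbol occurred on a probe set with several symbols. Arrays of a pool were averaged as 1 sample, and the pseudocount of 18 is the rounded mean of the arrays' 25th percentiles. Each gene's brightest probe set, by mean log2 value over the 4 arrays, stood for it in the lists. For levels outside the members, genes named were up to 5 called genes per list by size, or the 2 largest differences in a list with none, plus PIR and the 3 genes nearest to FOS. Counts of 5 or fewer are completed by name.

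The members, the 10 gene lists, the rules and the alternatives were chosen with earlier results of these data known. Alternatives changed the pseudocount, brightness limit, scaling, fold limit, margin, array set or probe set choice, or used limma, with or without a block for the replica number. Software was Python 3.11.15 with numpy 2.4.6, pandas 2.3.3 and matplotlib 3.10.9, and limma 3.58.1 in R 4.3.3.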

Additional observations from a re-analysis of the deposited data

How the results depend on the processing

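The count of 1 member called higher, FOS, and of none called lower held under each of the 14 alternatives run: the pseudocounts, brightness limits, scalings, 1.5-fold limit, no margin, each array left out, and limma with and without a replicate block. No brightness limit, no margin and the 1.5-fold limit loosen the rule, so they could add members but could not drop FOS. Leaving out the pseudocount widens each array pair's difference, so it could not drop FOS. The limma fits use the same FOS difference of 1.10, so they could drop FOS only through the adjusted p threshold. All 4 FOS array pairs differed by 1.05 or more, so leaving out 1 array could not drop it either. The FOS difference ran from 1.02 with a pseudocount of 72 to 1.22 after median scaling, and from 1.06 to 1.14 with 1 array left out. The counts over all probe sets moved more, from 502 higher and 318 lower. They were 308 and 185 with the pseudocount of 72, 1110 and 1280 without a brightness limit, 257 and 180 at the 75th percentile, 1414 and 1076 at 1.5-fold, and 695 and 213 after median scaling, where 76.5% of calls were higher, against 61.2% as deposited. Leaving out 1 array gave 562 to 665 higher and 375 to 514 lower, with 514 without empty-vector replica 1 and 479 without empty-vector replica 2; with fewer arrays fewer pairs must pass the margin.

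In limma the error is that of hybridisation, so its fits do not test the condition. At an adjusted p threshold of 0.05 and 2-fold, they called 512 higher and 327 lower without the block and 516 and 337 with the replicate block, and 1 member in each. The replica numbers name hybridisations and do not pair samples: deviations of same-numbered arrays correlated at r = 0.0040 over 21933 probe sets, which are not independent.

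The sign of small differences was not stable. Without knock-down replica 1 it changed for FOSL2 205409_at (-0.06), JUN 201466_s_at (0.04), JUNB (-0.0059), EGR1 201693_s_at (-0.02) and both measured ATF3 probe sets (0.17 and -0.12). Without empty-vector replica 2 it changed for JUNB (-0.02), ATF3 202672_s_at (-0.15) and EGR1 201693_s_at (-0.10), and without empty-vector replica 1 for JUN 201466_s_at (0.05). Of 230 recomputed member differences, 216 moved by less than the spread between arrays and 14 by more. Leaving out 1 array, or using 1 replica number alone, cannot move a difference by more than that spread. All 14 came from other pseudocounts or scalings, so the 216 include values that could not have moved further. Of the recomputed list medians, 38 moved by more than their SD over the 4 array pairs and 83 did not. The median of the members over their brightest probe sets, 0.21, ran from 0.13 with a gene's probe sets averaged to 0.34 after median scaling. The calls of genes around AP-1 on all their probe sets and under other settings, MAP3K8 and NR4A1 included, were added after seeing the data.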
